A study of Mus musculus with 36 samples.

Results

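Major heat shock protein genes were followed through the hippocampus of Cx3cr1-NuTRAP mice, by gene symbol: Hspa1a, Hspa1b, Hspa5, Hspa8, Hsp90aa1, Hsp90ab1, Hspb1, Hsph1, Dnajb1 and Hspd1. All 10 of them were found among the 36172 gene rows of the table, and all 10 passed the filter on low counts in every comparison. The mice carry a cre recombinase driven by the Cx3cr1 promoter, which is active in microglia and related macrophages, and the NuTRAP reporter, which tags ribosomes with GFP once cre has acted. Every animal in every group had this genotype and had its cre switched on with tamoxifen, so no untreated mice serve as controls. Input libraries hold polyadenylated RNA of the whole hippocampus, set aside before the pulldown. TRAP libraries (translating ribosome affinity purification) hold the RNA that came down with an antibody to GFP. Young inputs came from 10 mice of 6 months induced early (5 females, 5 males), and old early inputs from 12 mice of 22 months induced early (7 females, 5 males). Old late inputs came from 7 mice of 22 months induced late (5 females, 2 males), and the 7 TRAP libraries came from those same 7 mice. TRAP libraries of the other mice are not analysed here, and the ages and doses of induction are not given in the sources used here.

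Heat shock proteins are molecular chaperones, which hold unfolded proteins in solution, help them fold or pass them on for degradation. Hsp70 proteins bind exposed stretches of protein in cycles of ATP use, J-domain proteins deliver the substrates, nucleotide exchange factors release them, and Hsp90 acts later on partly folded kinases and receptors. Some members are made at all times, while others are switched on by heat shock factor 1 when proteins misfold. Neurons are known for a high content of the constitutive Hsc70 and Hsp90.

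The libraries held 12897300 to 20448700 estimated counts. Levels are given as CPM (counts scaled to a common library size, here with TMM factors over all 36 libraries) as mean ± SD. Cx3cr1 stood at 25.1 CPM in young, 34.6 in old early and 39.9 in old late inputs, and at 688.2 in the TRAP libraries, where it was 13.7 to 21.5 times the input of the same animal. Neuronal markers were not removed by the pulldown: the 7 neuronal genes summed to 8913 to 9877 CPM in the old late inputs and to 7382 to 8809 in TRAP. The 4 choroid plexus markers Ttr, Folr1, Kcnj13 and Clic6, made by the epithelium of the ventricle, summed to under 1000 CPM in 14 inputs (26.04 to 165) and to 1606 to 3961 in the other 15, a split within every group. Ttr, Folr1 and Clic6 were above 0 in every input, and Kcnj13 was at 0 in 1 old late input. The S numbers in the library names do not overlap between the input groups, and the labels do not say what they stand for, so what they record and the group cannot be told apart. Differences between groups were tested with edgeR's quasi-likelihood test across all genes, with sex in the model and Benjamini-Hochberg adjustment, and a gene was called at an adjusted p under 0.05. In bulk tissue, fewer cells of a type and less RNA per cell cannot be told apart.

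Of the 10 genes, 1 was called in old early against young inputs, where 25.6% of all tested genes were called. Again 1 was called in old late against young inputs, where the share of all genes was 34.5%. Both calls were Hsph1, which was lower in the old animals, a direction in which 12.6% and 17.5% of all genes were called (13% and 17% were called higher). The 2 comparisons share the 10 young mice. Old late and young inputs differ in age and in early or late induction together, and these cannot be told apart in that comparison. Between the old late and old early inputs, 0 of the 10 were called, beside 0.0334% of all genes (edgeR's quasi-likelihood test; 0 of the 10 had an unadjusted p under 0.05, and DESeq2 and limma voom called 0 as well). In TRAP against input, 2 of 10 were called, Hsp90aa1 and Hsph1, both lower in TRAP, and 59.2% of all genes were called there, 28.8% lower and 30.4% higher. This fit left out the pairing of libraries by animal. With the animal as a replicate block, Hspa5 and Hspb1 were called as well, both higher. The share of all genes called in that fit is not given here, so the added calls have no background beside them. These are counts out of 10 genes, and the 0 between the old groups says little beside so small a share of all genes. The count in TRAP depended on the scaling, as given below. The median log2 fold change over the 10 genes was -0.01, 0.05, 0.04 and -0.06 in these 4 comparisons in turn, and that over all tested genes was 0.01, 0.01, 0.00 and -0.02.

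**Figure D1:**
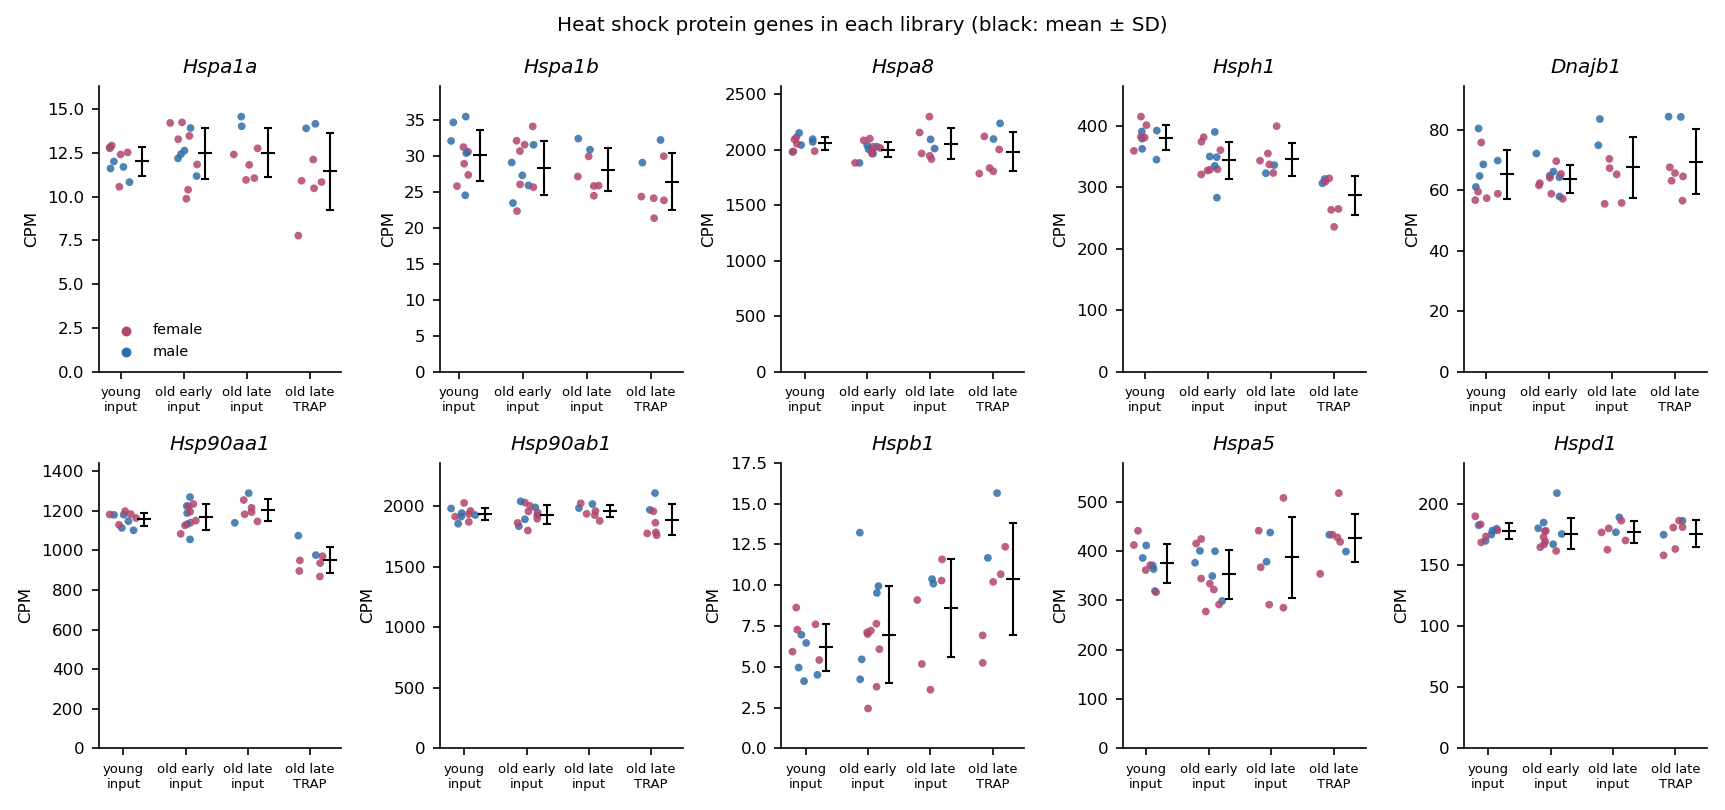
CPM of each of the 10 genes in every library, by group, females and males in different colours, with the group mean and SD in black (n = 10 young, 12 old early and 7 old late inputs, and 7 TRAP libraries). The TRAP libraries of Hsp90aa1, from 868.4 to 1075 CPM, all lie below the old late inputs, at 1140 CPM or more, and so do those of Hsph1, at 235.9 to 314.8 against 323.2 CPM or more.

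Hspa1a and Hspa1b encode the stress-inducible Hsp70 and are near-identical neighbours on chromosome 17 (build mm10). Hspa1a lies at chr17:34969359-34972156 and Hspa1b at chr17:34956429-34959238, both on the minus strand. Their longest open reading frames matched at 99.4% of bases, and 58.8% of the 50-base windows of the Hspa1a transcript were also found in Hspa1b, so the split of reads between the copies is uncertain. The 200 bases before each start are shown because the copies can hardly be told apart there either (RefSeq sequences, GRCm38.p6, chr17:34972157-34972356 and chr17:34959239-34959438, both minus strand, written 5′ to 3′). Capitals mark the bases fixed in GAANNTTC, the joined pair of units that make up a heat shock element, the letters heat shock factors bind.
Hspa1a: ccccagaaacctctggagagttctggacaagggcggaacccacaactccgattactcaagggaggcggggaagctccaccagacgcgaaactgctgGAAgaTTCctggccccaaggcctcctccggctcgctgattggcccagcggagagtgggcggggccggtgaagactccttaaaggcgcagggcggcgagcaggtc
Hspa1b: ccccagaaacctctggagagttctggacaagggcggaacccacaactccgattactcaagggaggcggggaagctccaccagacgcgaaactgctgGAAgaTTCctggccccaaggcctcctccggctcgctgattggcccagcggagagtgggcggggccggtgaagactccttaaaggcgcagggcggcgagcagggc
Within the 250 bases before the start, the copies differed by C44T, T47C and T249G (Hspa1a base first, positions counted from 1 at the 5′ end of that window). The capitals begin at position -104 from the start in both. The search covered GAANNTTC and TTCNNGAA on both strands, and 14.55% of 27025 genes with a promoter entry held a match in windows of the same length. Among the 7 members with an entry, 5 held a match (Hspa1a, Hspa1b, Hsph1, Hspb1 and Hspd1). A match is a description of letters and not a binding site.

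Hspa1a stood at 12.0 ± 0.829 CPM in young, 12.5 ± 1.45 in old early and 12.5 ± 1.39 in old late inputs, with ranges of 10.56 to 12.91, 9.875 to 14.23 and 10.95 to 14.56 CPM. Hspa1b ranged from 24.53 to 35.46, 22.33 to 34.11 and 24.47 to 32.41 CPM in the same order. All input ranges overlapped widely. The log2 fold change of Hspa1a was 0.07 (95% interval -0.07 to 0.20) in old early and 0.08 (-0.08 to 0.24) in old late against young inputs. For Hspa1b it was -0.07 (-0.22 to 0.07) and -0.07 (-0.24 to 0.10), and no call was made for either copy. Because the split between copies is uncertain, their sum is the safer measure, and it averaged 42.1, 40.8 and 40.6 CPM in young, old early and old late inputs and 37.9 CPM in TRAP. Hspa1b held 71.3, 69.3, 69.2 and 69.8% of that sum. In TRAP, Hspa1a was below its animal's input in 7 of 7 animals, at 0.905 of it on the geometric mean, and Hspa1b in 6 of 7, at 0.936, yet neither was called (log2 fold change -0.14, interval -0.34 to 0.06, and -0.10, -0.25 to 0.06).

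Hspa8 encodes Hsc70, the Hsp70 made without stress, which also strips clathrin coats from vesicles. It lies at chr9:40801273-40805199 on the plus strand, with the small nucleolar RNA genes Snord14c, Snord14d and Snord14e inside it. It was the most abundant of the 10 by CPM, at 2058 ± 58.9 in young, 1999 ± 68.2 in old early, 2056 ± 136.8 in old late inputs and 1984 ± 177.4 in TRAP. The log2 fold changes were -0.03 (interval -0.09 to 0.02) and 0.01 (-0.05 to 0.08) in the 2 old groups and -0.06 (-0.18 to 0.06) in TRAP, where 5 of 7 animals were below their input. None was called.

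Hsph1 encodes Hsp105, a large relative of Hsp70 that works as its nucleotide exchange factor. The gene lies at chr5:149616845-149636315 on the minus strand. Its 200 bases before the start (chr5:149636337-149636536, minus strand, RefSeq GRCm38.p6) are shown because it is the member called in 3 comparisons. RefSeq has 2 starts for Hsph1, and the stretch precedes the outer one, while the end of the gene given above is the other. Capitals mark the fixed bases of TTCNNGAA, the same units in the other order, at -33 from the outer start and -54 from the other.
Hsph1: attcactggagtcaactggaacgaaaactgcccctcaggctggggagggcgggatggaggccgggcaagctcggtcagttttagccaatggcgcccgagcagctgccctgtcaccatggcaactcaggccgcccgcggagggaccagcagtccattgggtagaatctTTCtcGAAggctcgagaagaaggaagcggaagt
In young inputs Hsph1 ranged from 345.2 to 415.3 CPM with a median of 381.9, in old early inputs from 283.4 to 390.4 with a median of 342.2, and in old late inputs from 323.2 to 399.8 with a median of 337.5. The ranges overlapped, but 6 of 12 old early and 5 of 7 old late inputs lay below the lowest young one. The ranges of old and young inputs separated for 0 of the 10 genes in either comparison, beside 1.78% of all genes for old early and 6.89% for old late, and for 0 of 10 between the old groups (0.0198% of all genes). Hsph1 was lower in old early inputs by a log2 fold change of -0.14 (SE 0.043, interval -0.23 to -0.05, edgeR adjusted p = 0.0148), or 0.907-fold. In old late inputs the change was -0.14 (SE 0.050, interval -0.24 to -0.04, edgeR adjusted p = 0.0323), or 0.909-fold, and 0.00 between the old groups.
The summed neuronal markers averaged 10020, 9794 and 9403 CPM in young, old early and old late inputs. Of 7 neuronal genes, 3 were called lower and 0 higher in old late against young, but 0 lower and 1 higher (Snap25) in old early against young. Their part in the Hsph1 result was not tested. The old late call was lost when young replicate 5 was left out (edgeR adjusted p = 0.0629) or old late replicate 1 (0.0625), 2 (0.0568), 3 (0.0613) or 5 (0.05). With upper quartile scaling it was lost too (log2 fold change -0.12, edgeR adjusted p = 0.0731), while Hsp90aa1 was called higher there (0.09, 0.0434). Among females alone neither call was made (log2 fold change -0.16, edgeR adjusted p = 0.0761, and -0.13, 0.133), nor in the inputs of 1 choroid plexus class alone, where the log2 fold changes were -0.12 and -0.19 (under 1000 CPM) and -0.19 and -0.12 (above).

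Dnajb1 encodes Hsp40, a J-domain protein that hands substrates to Hsp70, and lies at chr8:83608175-83611903 on the plus strand. It stood at 65.3 ± 8.16 CPM in young, 63.8 ± 4.51 in old early and 67.6 ± 10.1 in old late inputs, with no call in any comparison of these input groups. Males stood higher than females by a log2 fold change of 0.16 over the 29 inputs (interval 0.05 to 0.26, unadjusted p = 0.00551), which did not pass the adjustment (edgeR adjusted p = 0.294). Of all tested genes 0.174% were called between the sexes, and 0 of the 10 (edgeR's quasi-likelihood test; 1 of the 10 had an unadjusted p under 0.05, and DESeq2 and limma voom called 0 as well). The sexes overlapped in young inputs (males 61.12 to 80.45 CPM, females 56.75 to 75.82) and in old early inputs (57.97 to 72.18 and 57.2 to 69.66). The 2 old late males had 74.9 and 83.6 CPM in their inputs and 84.4 and 84.3 in TRAP, while the 5 females reached at most 70.4 and 67.6. Leaving out any single library gave no call of a difference between the sexes among the 10 genes. In TRAP the Dnajb1 log2 fold change was 0.03 (interval -0.10 to 0.16), and -0.11 with upper quartile scaling, not called in either.

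Hsp90aa1 and Hsp90ab1 encode the stress-responsive and the constitutive cytosolic Hsp90, at chr12:110691036-110696395 and chr17:45567778-45573261, both on the minus strand. Their longest open reading frames matched at 75.7% of bases and shared 0 of the 50-base windows. Hsp90aa1 ranged from 1102 to 1199 CPM in young, 1056 to 1270 in old early and 1140 to 1290 in old late inputs, all overlapping. Its log2 fold change was 0.02 (interval -0.04 to 0.08) in old early and 0.07 (0.00 to 0.14) in old late against young inputs, the latter with an unadjusted p of 0.0498 and an edgeR adjusted p of 0.113. Hsp90ab1 ranged from 1855 to 2027, 1799 to 2040 and 1879 to 2024 CPM, with fold changes of 0.01 (-0.04 to 0.06) and 0.04 (-0.02 to 0.09), not called.

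In the old late animals, Hsp90aa1 inputs ranged from 1140 to 1290 CPM and TRAP libraries from 868.4 to 1075. The ranges did not meet, and TRAP was below its own input in 7 of 7 animals, at 0.715 to 0.857 of it. The log2 fold change was -0.35 (SE 0.046, interval -0.44 to -0.25, edgeR adjusted p = 6.34e-06), or 0.787-fold. Hsph1 also differed: 323.2 to 399.8 CPM in the inputs, 235.9 to 314.8 in TRAP, lower in 7 of 7 animals, with a log2 fold change of -0.28 (SE 0.071, interval -0.43 to -0.13, edgeR adjusted p = 0.00303), or 0.826-fold. These were the 2 of 10 genes whose groups did not overlap, beside 29.1% of all genes. Hsp90ab1 had a log2 fold change of -0.06 (interval -0.15 to 0.02, edgeR adjusted p = 0.184) and was lower in 5 of 7 animals. TRAP libraries hold a larger share of microglial and a smaller share of neuronal, oligodendrocyte and choroid plexus RNA than their inputs (13530 against 738.7 CPM of the 10 microglial markers, 8171 against 9403 neuronal, 2132 against 5176 oligodendrocyte, 541.8 against 1876 choroid plexus). Summed markers of border macrophages (101.8 against 7.519 CPM) and of endothelial cells (186.4 against 99.3) were higher in TRAP too. Those of astrocytes (3127 against 3724), oligodendrocyte precursors (46.89 against 119.9), mural cells (33.19 against 41.76) and blood (73.12 against 333.6) were lower. The part of these cell types in the differences was not tested. With upper quartile scaling and with library size alone, which moved the median of all genes to -0.17 and -0.13, 7 of the 10 genes were called lower. Calls over all genes moved too: 6372 of 14596 were lower with upper quartile scaling and 4198 with TMM. The count of all genes with library size alone is not given here. Relative to the median of all genes, Hsp90aa1 was at -0.33, -0.32 and -0.33 with TMM, upper quartile and library size, and Hsph1 at -0.26, -0.25 and -0.25. A change of scaling shifts all genes nearly alike. These relative values therefore stay close by construction and do not test the calls.

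**Figure D2:**
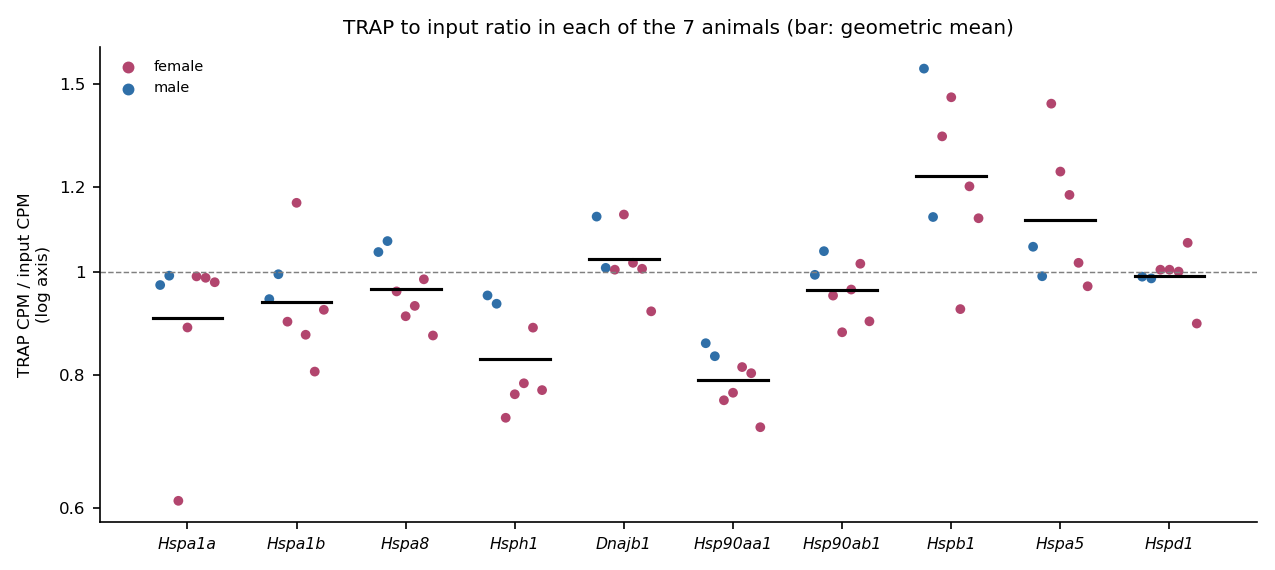
Ratio of the TRAP to the input CPM in each of the 7 old late animals for every gene on a log axis, females and males in different colours, with a bar at the geometric mean and a dashed line at equal levels. Hsp90aa1, Hsph1 and Hspa1a are below the line in 7 of 7 animals, and Hspb1 is above it in 6 of 7.

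Hspb1 encodes Hsp27, a small heat shock protein that holds unfolded proteins without using ATP, at chr5:135887919-135889563 on the plus strand. It had the lowest CPM of the 10 in each group. Hspb1 ranged from 4.118 to 8.626 CPM in young inputs (median 6.192), 2.441 to 13.22 in old early (median 7.055) and 3.593 to 11.58 in old late (median 10.09), with 5 of 7 old late inputs above the highest young one and 1 below the lowest. The log2 fold change was 0.17 (interval -0.27 to 0.60) in old early and 0.51 (SE 0.242, interval 0.01 to 1.00, edgeR adjusted p = 0.105) in old late inputs, with wider intervals than the other 9 genes. Leaving out 1 library moved the old early value between 0.05 and 0.25, and without old late replicate 4 Hspb1 was called in old late inputs (0.62, edgeR adjusted p = 0.0423). In TRAP it ranged from 5.235 to 15.64 CPM, with a log2 fold change of 0.25 (interval -0.24 to 0.75, edgeR adjusted p = 0.363). A fit with the animal as a replicate block gave 0.28 with an edgeR adjusted p of 0.0316.
The level of Hspb1 moved with the choroid plexus markers in every group. In young inputs it was 4.118 to 5.411 CPM where those markers summed to under 1000 (n = 4) and 5.924 to 8.626 where they were above (n = 6). In old early inputs it was 2.441 to 7.636 (n = 8) against 7.106 to 13.22 (n = 4), and in old late inputs 3.593 to 5.168 (n = 2) against 9.087 to 11.58 (n = 5). Among the inputs, the classes overlapped in the old early group and not in the other groups. TRAP libraries had 5.235 to 6.922 CPM where the input of the same animal was under 1000 (n = 2) and 10.2 to 15.64 where it was above (n = 5). The part of the choroid plexus in the Hspb1 values was not tested beyond these fits. With the class as a term, the log2 fold change in old early inputs was 0.38 (edgeR adjusted p = 0.0486, a call) and in old late 0.36 (0.0815). In the 15 inputs with markers above 1000 CPM alone, the fold change in old late inputs was 0.53 (edgeR adjusted p = 0.0137). In the 14 under it, it was -0.26, the other direction, not called. The sexes differed in the age change by 0.90 (interval 0.11 to 1.68, edgeR adjusted p = 0.272), and by 0.28 with the class as a term. Age by sex, 0 of the 10 were called and 0% of all genes (edgeR's quasi-likelihood test, 2301 genes at an unadjusted p under 0.05, 1 of the 10; DESeq2 called 13 genes and limma voom 0, with 0 of the 10 in both).

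**Figure D3:**
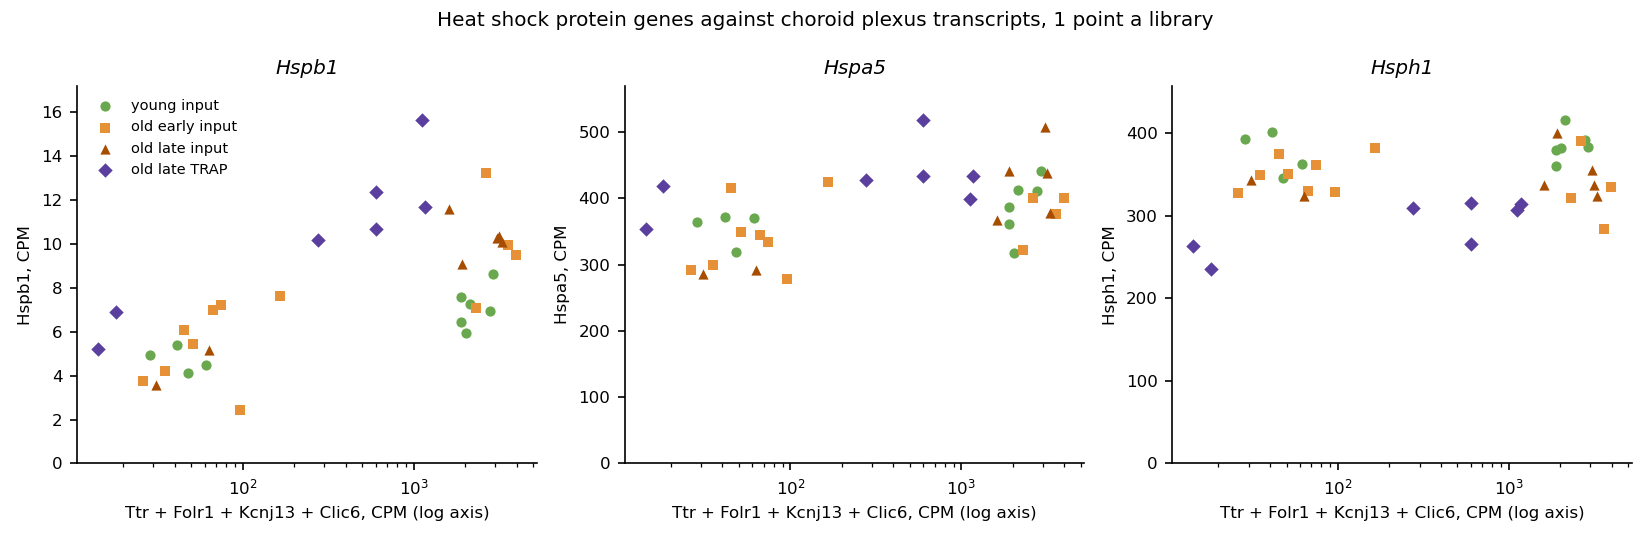
CPM of Hspb1, Hspa5 and Hsph1 in each library against the summed CPM of the 4 choroid plexus markers of that library (log axis), with a colour and symbol for each group. Hspb1 reaches at most 7.636 CPM in inputs with marker sums under 1000 and 13.22 in those above.

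Hspa5 encodes BiP, the Hsp70 of the endoplasmic reticulum (ER) and a regulator of the unfolded protein response. It lies at chr2:34772090-34776529 on the plus strand. The 200 bases before its start (chr2:34771890-34772089, plus strand, RefSeq GRCm38.p6) are shown because they carry the ER stress element, whose fixed bases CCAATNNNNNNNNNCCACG are in capitals, beginning at position -65. That element was present in 0.1295% of the genes.
Hspa5: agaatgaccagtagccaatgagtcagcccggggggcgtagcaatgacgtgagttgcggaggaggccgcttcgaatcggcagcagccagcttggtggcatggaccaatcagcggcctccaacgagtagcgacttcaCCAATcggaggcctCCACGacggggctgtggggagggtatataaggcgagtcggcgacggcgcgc
Hspa5 stood at 375.7 ± 39.6 CPM in young, 353.1 ± 50.3 in old early and 387.3 ± 81.8 in old late inputs. The ranges were 316.9 to 441.6, 277.7 to 424.9 and 285.4 to 508.2 CPM, and overlapped. Log2 fold changes were -0.08 (interval -0.26 to 0.10) and 0.07 (-0.14 to 0.27). TRAP ranged from 354.1 to 517.9 CPM, higher than its input in 5 of 7 animals, with a log2 fold change of 0.13 (-0.12 to 0.38, edgeR adjusted p = 0.347). With the animal as a replicate block it was 0.15 with an edgeR adjusted p of 0.0432, and it was -0.01 with upper quartile scaling. In the old late inputs Hspa5 was 285.4 to 291.6 CPM where choroid plexus markers were under 1000 CPM (n = 2) and 367.5 to 508.2 where they were above (n = 5). The classes overlapped in young inputs (319.2 to 371.7 against 316.9 to 441.6 CPM) and in old early inputs (277.7 to 424.9 against 322.2 to 400.8).

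Hspd1 encodes Hsp60, the chaperonin of mitochondria, at chr1:55077834-55087932 on the minus strand. The 200 bases before its start (chr1:55087933-55088132, minus strand, RefSeq GRCm38.p6) are shown because they hold 3 units of the heat shock element in a row (TTCNNGAANNTTC, here with a further unit), a match found in 0.5143% of the genes. RefSeq has a second Hspd1 start further upstream, whose window held no match. The shorter 2-unit letters lie within the marked part of the printed stretch.
Hspd1: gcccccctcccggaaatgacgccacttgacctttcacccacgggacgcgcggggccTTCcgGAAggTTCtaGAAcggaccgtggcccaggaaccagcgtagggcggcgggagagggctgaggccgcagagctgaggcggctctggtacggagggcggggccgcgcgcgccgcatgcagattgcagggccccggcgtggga
Its group means lay close together, at 178.1 ± 6.53 CPM in young, 175.9 ± 12.6 in old early, 177.6 ± 9.08 in old late inputs and 176.0 ± 11.2 in TRAP. The fold changes were -0.01 (interval -0.08 to 0.06), 0.02 (-0.06 to 0.10) and -0.02 (-0.12 to 0.08) on the log2 scale.

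**Figure D4:**
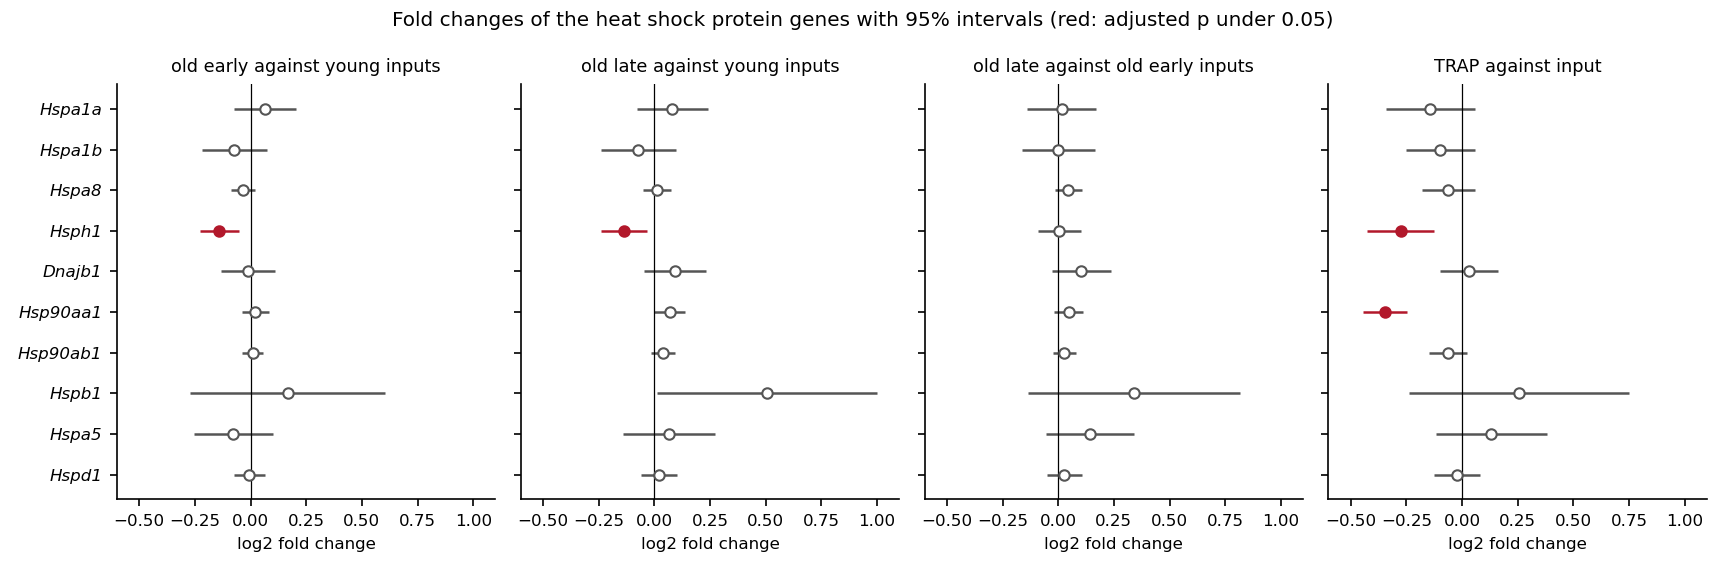
Log2 fold change of each gene with its 95% interval in 4 comparisons, with an adjusted p under 0.05 in red. Intervals of Hsph1 lie below 0 in the 2 comparisons of old with young inputs and in TRAP against input, that of Hsp90aa1 does in TRAP against input, and Hspb1 has the widest intervals.

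The 10 genes together averaged 6197 CPM in young, 6085 in old early and 6248 in old late inputs and 5833 in TRAP. Per length of the mRNA, the order in young inputs was Hspa8 (859.5 CPM per kb), Hsp90ab1 (767), Hsp90aa1 (353.1), Hspa5 (102.3), Hsph1 (100.3), Hspd1 (73.5), Dnajb1 (21.8), Hspa1b (10.7), Hspb1 (6.85) and Hspa1a (4.05). The ranges of Hspa5 and Hsph1 overlapped there, as did those of Hspa1b and Hspb1. In the other 3 groups the ranges of Hspa8 and Hsp90ab1 overlapped as well. In TRAP, Hspa5 at 116.1 CPM per kb lay apart from Hsph1 at 75.5, and Hsph1 overlapped Hspd1.

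Over the 29 inputs, after subtraction of the group by sex means, 42 of the 45 pairs had a positive correlation, with a median r of 0.317, and 11 passed the adjustment, all positive. In the 3 input groups taken singly, r was positive in each for 26 pairs and changed sign between groups for the other 19, among them Hspa1b with Hsp90ab1, 1 of the 11. Hsp90aa1 and Hsph1 had r 0.785 and rho 0.721 (permutation, adjusted p = 0.00045 over the 45 pairs), and r 0.667 without the 2 libraries farthest from the median. By choroid plexus class r was 0.761 above 1000 CPM (n = 15) and 0.719 under it (n = 14). Hspa5 and Hspb1, which both moved with the choroid plexus class in old late inputs, had r 0.454 above and 0.778 under 1000 CPM, and no pooled value is given. Hspa8 and Hsph1 had r 0.653 and rho 0.699 (permutation adjusted p = 0.00285), with 0.510 above and 0.859 under 1000 CPM. Hsp90aa1 and Hspd1 had r 0.599 and rho 0.679 (permutation adjusted p = 0.00585), with 0.658 above and 0.536 under. Hspa1a and Hspa1b, which share reads, had r 0.385 (permutation adjusted p = 0.0933). The points share their library scaling. The permutation shuffled values from which group by sex means had been subtracted, so its p-values may be too small. Pairs of other genes were not counted in the same way, so the 42 and the 11 have no background beside them. The genes whose pattern was most like that of Hspa1a and Hspa1b summed were Lin9 (r 0.653), Caskin2 (0.636), Il6st (0.617), Thsd1 (0.614) and Slu7 (0.609), over 29 inputs. They are the highest of 12945 genes compared, whose median r was 0.003. Whether values this high exceed what such a search gives by chance was not tested.
For Hspa5, r with 19 genes of the ER list had a median of 0.705 in inputs with choroid markers under 1000 CPM and 0.776 above, where all 12945 genes had medians of 0.0075 and -0.0154. Chosen after values were seen, the genes most like it were Pdia6 (r 0.932), Manf (0.919), Sdf2l1 (0.915), Creld2 (0.912) and Pdia4 (0.872), which fold or protect proteins in the ER.

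The rest of the chaperone network was described by 8 lists with 81 genes, of which 77 were tested. Of these, 16 were higher and 4 lower in old early inputs (beside 25.6% of all genes called), 24 higher and 6 lower in old late inputs (beside 34.5%), and 27 higher and 15 lower in TRAP (beside 59.2%). The TRAP split turned to 18 higher and 37 lower with upper quartile scaling and to 21 and 31 with library size alone. In females alone 2 were higher and 3 lower in old early and 8 and 4 in old late inputs. Among small heat shock proteins 2 of 4 were higher in old early and 3 of 4 in old late inputs. Cryab (alpha B crystallin, an oligodendrocyte and astrocyte chaperone) rose by 0.29 (SE 0.062) and 0.47 (SE 0.071) on the log2 scale, with edgeR adjusted p of 0.000824 and 8.51e-06, and Hspb6 rose by 0.48 and 0.81. The old early Hspb6 call was lost in 6 of 29 fits that left out 1 library and in both choroid plexus classes alone, and the old late one in inputs under 1000 CPM. The oligodendrocyte markers summed to 3560 CPM in young, 4413 in old early and 5176 in old late inputs, and their part in the Cryab result was not tested. Of the heat shock factor list (Hsf1, Hsf2, Hsf4 and the factor binding protein Hsbp1) 1 of 4 was higher, Hsf4, by 0.26 and 0.47. Of 10 J-domain co-chaperones 1 was higher in old early inputs, Dnajb2, by 0.29, and the same gene by 0.35 in old late, where Dnajc6 was lower.
Of 13 Hsp90 co-chaperones 3 were higher and 2 lower in old early and 5 and 2 in old late inputs, and Fkbp5 (which dampens the glucocorticoid receptor) fell by 0.39 and 0.53. Of 12 genes of the Hsp70 family and its exchange factors 2 were higher and 1 lower in old early and 3 and 1 in old late inputs, with Bag3 higher by 0.24 and 0.33. In the ER list of 19, Atf4 (a transcription factor of the stress response) rose by 0.35 and 0.51 and Atf6 fell by 0.22 and 0.29, and 4 higher and 1 or 2 lower were counted in the 2 groups. The chaperonin TRiC had 2 of 7 higher in old early and 4 of 7 in old late inputs, with Cct7 at 0.10 and 0.13. Between the old groups, the sexes and for age by sex, 0 of the 77 were called by edgeR, with 7, 8 and 11 at an unadjusted p under 0.05. Of 8 mitochondrial chaperones 1 was higher in old early inputs, Clpp by 0.18, and 3 in old late, Hspe1 and Clpp by 0.16 and Hspa9 by 0.13. The Hspe1 call was lost in 7 of 29 fits that left out 1 library and without sex in the model. In a single choroid plexus class, the calls of Bag3 in both comparisons, of Cct7 in old early and of Hspa9, Hspe1 and Clpp in old late were made in neither class. The old early call of Hsf4 and the old late calls of Cct7 and Dnajc6 were not made in inputs under 1000 CPM. The old early calls of Atf4 and Clpp were not made in those above. Among females alone, the old early calls of Cryab, Hspb6, Hsf4, Bag3, Atf4, Atf6, Cct7 and Clpp and the old late calls of Bag3, Dnajc6, Cct7, Hspe1, Clpp and Hspa9 were not made, while Dnajb2 and Fkbp5 were called in both comparisons and Cryab, Hsf4, Atf4 and Atf6 in old late against young.
In TRAP the ER list was the one with most genes higher: 14 of 19 were, and none was lower, with a median log2 fold change of 0.352, and 12 higher and 3 lower under upper quartile scaling and 13 and 3 with library size alone. Sdf2l1 was higher by 1.63 (SE 0.161, edgeR adjusted p = 1.86e-07), P4hb by 0.80 and Pdia3 by 0.77. The J-domain list stood the other way, with 6 of 10 lower and none higher, Dnajb2 at -0.34 and Dnajb4 at -0.31. J-domain genes counted in other lists were called higher: Dnajb11 (0.32) and Dnajc3 (0.27) in the ER list and Dnaja3 (0.13) in the mitochondrial one. The calls of Dnajc3 and Dnaja3 were lost with upper quartile and with library size scaling. Among small heat shock proteins Cryab fell by 1.15 and Hspb8 by 0.87. Of the 4, 1 was higher, Hspb3, by 2.54, named here without regard to its level. Of the heat shock factor list 1 of 4 was higher (Hsf1, by 0.43). The Hsp70 family and its exchange factors had 4 of 12 higher and 3 lower, led by Hspa12b at 0.86 and Hspa2 at -0.41, and Hsp90 co-chaperones had 4 of 13 higher and 2 lower, led by Fkbp5 at 0.66 and Cdc37 at 0.41. With upper quartile scaling these became 2 and 7 for the Hsp70 family and 2 and 8 for the Hsp90 co-chaperones, and with library size alone 4 and 6, and 2 and 7. Mitochondrial chaperones had 2 of 8 higher and 1 lower, and TRiC 1 of 7 higher (Cct4, 0.16, not called with upper quartile or library size scaling) and 1 lower (Tcp1, -0.25). With upper quartile scaling these became 0 and 5 for the mitochondrial list and 0 and 4 for TRiC, and with library size alone 0 and 3 for both. Oligodendrocyte markers were lower in TRAP (2132 against 5176 CPM), and their part in the Cryab result was not tested.

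**Figure D5:**
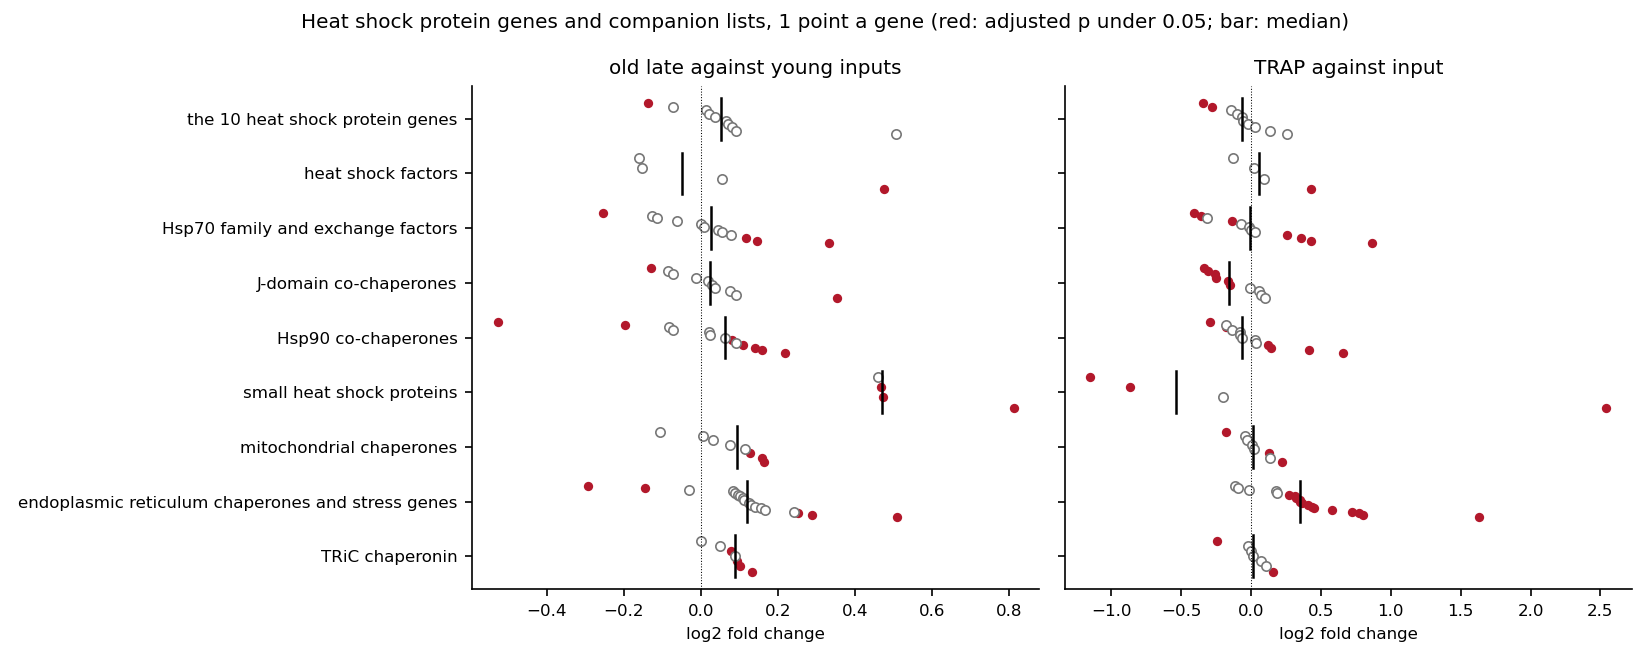
Log2 fold change of every gene of the 10 heat shock protein genes and of the 8 lists, in old late against young inputs and in TRAP against input, with 1 point a gene, red points for an adjusted p under 0.05 and a bar at the median. The ER list has 14 of 19 genes higher in TRAP, and the J-domain list 6 of 10 lower.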

How the data were processed

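RNA sequencing covered 36 libraries of mouse hippocampus (29 inputs, 7 TRAP). The authors deposited estimated counts for 36172 genes, marked raw per the file headers. Of the nonzero values, 77.25% are not whole within 1e-06, and all were rounded for testing. The submitters' processing notes name the build mm10 and DESeq2. The aligner and counter are not given in the sources used here.

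Genes were kept with edgeR's filterByExpr (minimum count 10) and scaled by TMM. edgeR 4.0.16 quasi-likelihood tests under R 4.3.3 used group and sex, with all 29 inputs in 1 fit and the old late inputs and TRAP libraries in another, and Benjamini-Hochberg adjusted p under 0.05. limma 3.58.1, DESeq2 1.42.0, other scalings, other sample subsets and leaving out each library were alternatives. Fits were tested on simulated data with independent libraries and few changed genes, as many up as down. Such data cannot show effects of the pairing by animal or of the choice of scaling. Motifs and GENCODE mouse transcripts (for lengths and copies) were read with Python 3.11.15, correlations with scipy 1.17.1 and alignments with Biopython 1.88. The replicates are separate animals, and the TRAP libraries pair with the inputs of the same animals (same-animal correlations 0.344 to 0.511). All 10 genes are named, and for each list up to 3 called genes with the largest change and average log2 CPM over 1. The genes and lists were chosen with earlier results of these data known, and the choroid plexus classes after seeing the data. Sequences come from RefSeq GRCm38.p6, where 7 of 10 genes had a promoter entry; Hspa8, Hsp90aa1 and Hsp90ab1 are named only.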

Additional observations from a re-analysis of the deposited data

Results flagged for a closer look

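Among 40 sets of values tested for a sample far from the others, 2 held such a sample, where chance gives about 1 in 20, or 2. The 12 old early inputs were not tested in this way. In the old late inputs, the Hsph1 level of replicate 7 (399.8 CPM) lay far above the next (355.3). Without it the log2 fold change against young inputs was -0.18 (edgeR adjusted p = 0.00648). The TRAP to input ratio of Hspa1a was 0.6095 in animal 3, with the next lowest at 0.8862. Without that TRAP library the log2 fold change was -0.08 (edgeR adjusted p = 0.424).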

How the results depend on the processing

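Over all alternatives 2178 values of single members were recomputed: 2149 stayed on their side of the threshold, 12 lost a call and 17 gained one. The sign was the other one in 63, of which 0 were called in either fit. Members called in old early against young inputs numbered 1, but 0 in females only and in inputs under 1000 CPM of choroid plexus markers, and 2 with the class as covariate, which added Hspb1. In inputs above 1000 the 1 member was Hspa1b (-0.37, edgeR adjusted p = 0.00522) in place of Hsph1. In old late against young they numbered 0 in females only and in inputs under 1000, and the 1 member was Hspb1 in inputs above 1000 and Hsp90aa1 with upper quartile scaling. In TRAP they numbered 2, but 7 with upper quartile scaling, 7 with library size alone and 4 with the animal as a replicate block. The block added Hspa5 and Hspb1, both higher. The counts of all genes with the block, and with the class as covariate in old early against young inputs, are not given here. Leaving out 1 library gave 1 to 1 member in old early, 0 to 2 in old late, 2 to 2 in TRAP and 0 to 0 elsewhere.

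All genes called in old early against young inputs numbered 1198 in females only, and 1234 under and 2058 above 1000 CPM of choroid plexus markers. In old late against young they numbered 2787, 1875 and 2635 in these settings. Between the old groups they numbered 58 with DESeq2, 3 with limma voom, 0 with only the groups compared, 182 in females only, 3 with the class as covariate, 101 under and 0 above 1000. Between the sexes they numbered 64 with DESeq2, 10 under and 11 above 1000, and for age by sex 13 with DESeq2. Leaving out 1 library gave 3294 to 4011 genes in old early, 4352 to 5393 in old late, 0 to 164 between the old groups, 17 to 32 between the sexes, 8150 to 8720 in TRAP and 0 to 453 for age by sex. Upper quartile scaling moved the split of higher to lower calls from 1940 and 1886 to 2351 and 1610 in old early, from 2536 and 2615 to 3015 and 2302 in old late and from 4442 and 4198 to 3280 and 6372 in TRAP. Why these counts moved was not tested. Females-only and class-wise fits use fewer libraries.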

Other observations

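Across the 7 old late animals, input and TRAP levels of Dnajb1 had r 0.881 and rho 0.857 (exact permutation p = 0.00556, adjusted p = 0.0556 over 10 genes), and r 0.700 without the 2 animals farthest from the median. For Hspb1 r was 0.919 (exact permutation, adjusted p = 0.0820) but 0.015 without those 2, so that relation rests on them. None of the 10 passed the adjustment.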
